A study of Mus musculus with 12 samples.

Results

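The inhibitors of cyclin-dependent kinases and the retinoblastoma family of pocket proteins were examined as 9 listed genes, Cdkn1a, Cdkn1b, Cdkn2a, Cdkn2b, Cdkn2c, Cdkn2d, Rb1, Rbl1 and Rbl2, chosen by their gene symbols in the platform annotation. Of these 9 genes, 8 had a probe set with a single gene symbol and all 8 passed the filter on dim genes, out of 13956 genes tested among 19938 measured. The only probe set that names Cdkn1a also names the noncoding gene 4930567H12Rik, so its signal could not be assigned to Cdkn1a, and it was kept out of every count. The cells were cultured embryonic fibroblasts of the mouse, labelled either wild type (WT) or MLL1-KO, a knockout of the histone methyltransferase gene Kmt2a. Cultures of both genotypes were kept in 5% fetal bovine and 5% newborn calf serum, were given 50% horse serum for 2 h, a shock used to align circadian clocks, and were sampled 18 h or 30 h later. Each of the 4 groups held 3 arrays. The labels do not say whether replicates were separate cultures, which part of Kmt2a was disrupted, or whether a genotype was represented by more than 1 line, so the p-values rest on the spread among arrays alone, and that spread may be technical.

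Cell cycle entry is controlled by complexes of cyclins with cyclin-dependent kinases (CDKs), which phosphorylate the pocket proteins pRB, p107 and p130 and so release E2F transcription factors. The INK4 inhibitors p15, p16, p18 and p19 bind CDK4 and CDK6, whereas the CIP/KIP inhibitors p21 and p27 bind a wider range of cyclin and CDK complexes. The Cdkn2a locus encodes p16INK4a and, from another first exon read in a different frame, p19ARF, which stabilises p53 by holding back its ligase MDM2. Products of Cdkn2a and Cdkn2b are known to accumulate in fibroblasts kept in culture.

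The arrays measured single bulk preparations, in which fewer cells of a type and less RNA per cell cannot be told apart. Median intensity per array lay between 273.3 and 311.8, and the number of arrays limits the precision. The first principal component held 86.8% of the variance and separated the genotypes. Wild-type arrays lay from -56.1 to -52.2 on it and knockout arrays from 48.3 to 60.7. Knockout 18 h replicate 1 stood apart on the second principal component of all tested genes, which held 7.11% of the variance, at -9.34 against -25.2 and -24.9 in replicates 2 and 3 and 20.0 to 24.6 in the knockout 30 h arrays. Kmt2a itself read 2265, 2824 and 2099.7 in wild type and 2120.2, 2174 and 1959.7 in the arrays labelled knockout at 18 h (log2 fold change -0.19, adjusted p = 0.108), and was lower in knockout by 0.57 on the log2 scale at 30 h (log2 fold change -0.57, adjusted p = 0.000111). The genotype labels are therefore not checked by Kmt2a, because the position of the probes relative to the disruption is not known. Of 18 fibroblast markers 16 were above the filter, with a summed intensity of 99219 to 105391 in wild type and 76023 to 81612 in knockout.

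Promoters of 8 of the 9 listed genes (all but Rb1), 11 promoters in all, were matched in RefSeq sequences of mouse build GRCm38.p6. The 250 bases before the start are shown for the gene with the largest difference between genotypes (Cdkn2b), and for the promoters that hold an E2F motif, with motif letters in capitals, 5′ to 3′ on the gene's strand. They lie before the first exon at chr4:89311033-89311282 (Cdkn2b, minus strand), chr4:89294620-89294869 (the upstream of both Cdkn2a starts, on the side of the ARF first exon, minus strand) and chr2:157204535-157204784 (Rbl1, minus strand).
Cdkn2b: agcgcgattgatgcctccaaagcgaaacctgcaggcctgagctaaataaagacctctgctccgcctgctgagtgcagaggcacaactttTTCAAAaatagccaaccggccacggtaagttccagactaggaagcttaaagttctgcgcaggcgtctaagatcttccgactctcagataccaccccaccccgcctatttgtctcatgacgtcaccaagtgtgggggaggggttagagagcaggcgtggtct
Cdkn2a, upstream start: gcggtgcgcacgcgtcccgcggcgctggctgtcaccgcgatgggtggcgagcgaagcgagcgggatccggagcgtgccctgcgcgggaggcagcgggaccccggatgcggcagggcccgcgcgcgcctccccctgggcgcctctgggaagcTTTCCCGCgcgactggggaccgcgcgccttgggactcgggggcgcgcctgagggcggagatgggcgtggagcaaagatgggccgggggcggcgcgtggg
Rbl1: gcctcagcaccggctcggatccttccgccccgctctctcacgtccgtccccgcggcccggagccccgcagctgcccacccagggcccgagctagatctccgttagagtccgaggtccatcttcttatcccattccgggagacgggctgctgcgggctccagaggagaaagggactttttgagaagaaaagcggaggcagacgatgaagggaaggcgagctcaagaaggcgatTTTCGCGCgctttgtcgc

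The motifs searched on both strands were TTTCCCGC, TTTGGCGC and TTTCGCGC for E2F and TTTGAA for the cell cycle homology region (CHR), the element through which the DREAM complex of p130 or p107 with E2F and MuvB proteins binds late cell cycle genes. An E2F motif stood in 2 of the 11 member promoters, TTTCCCGC beginning 99 bases before the upstream Cdkn2a start and TTTCGCGC beginning 18 bases before the Rbl1 start. Of 32851 promoters of the same 300 bases (250 before and 50 after the start), 1.84% held at least 1 of these E2F letters. TTTGAA stood in 2 member promoters, on the minus strand 161 bases before the Cdkn2b start, where it reads TTCAAA above, and 201 bases before the Rbl2 start, against 17.9% of all promoters. No promoter held both motifs. CpG content differed widely among the 11, from 2 CpG in 300 bases at the first Cdkn1a start to 45 at the upstream Cdkn2a start, with 12 at the downstream Cdkn2a start and 18 at Cdkn2b, against a median of 7 over all promoters. These matches describe letters only, and binding was not measured.

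At 18 h the knockout cells had lower levels of 7 of the 8 members and a higher level of Cdkn2d. All 8 passed the test, against 60.1% of all genes tested, so a call alone sets no member apart in these data. Cdkn2b reached the test only through its wild-type arrays, so its call and its lack of overlap add nothing to the counts given here. Lower calls were 33.8% of all tested genes and higher calls 26.3%. The median log2 fold change over the 8 members was -0.61, beside -0.03 over all tested genes. This median includes Cdkn2b, and without Cdkn2b the middle value is that of Rbl2, -0.41. Arrays of the 2 genotypes did not overlap for any of the 8, against 63.1% of all tested genes. Fold changes and tests are on the scale of log2(intensity + 16), fitted with limma, and a gene was called at an adjusted p under 0.05.

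**Figure D1:**
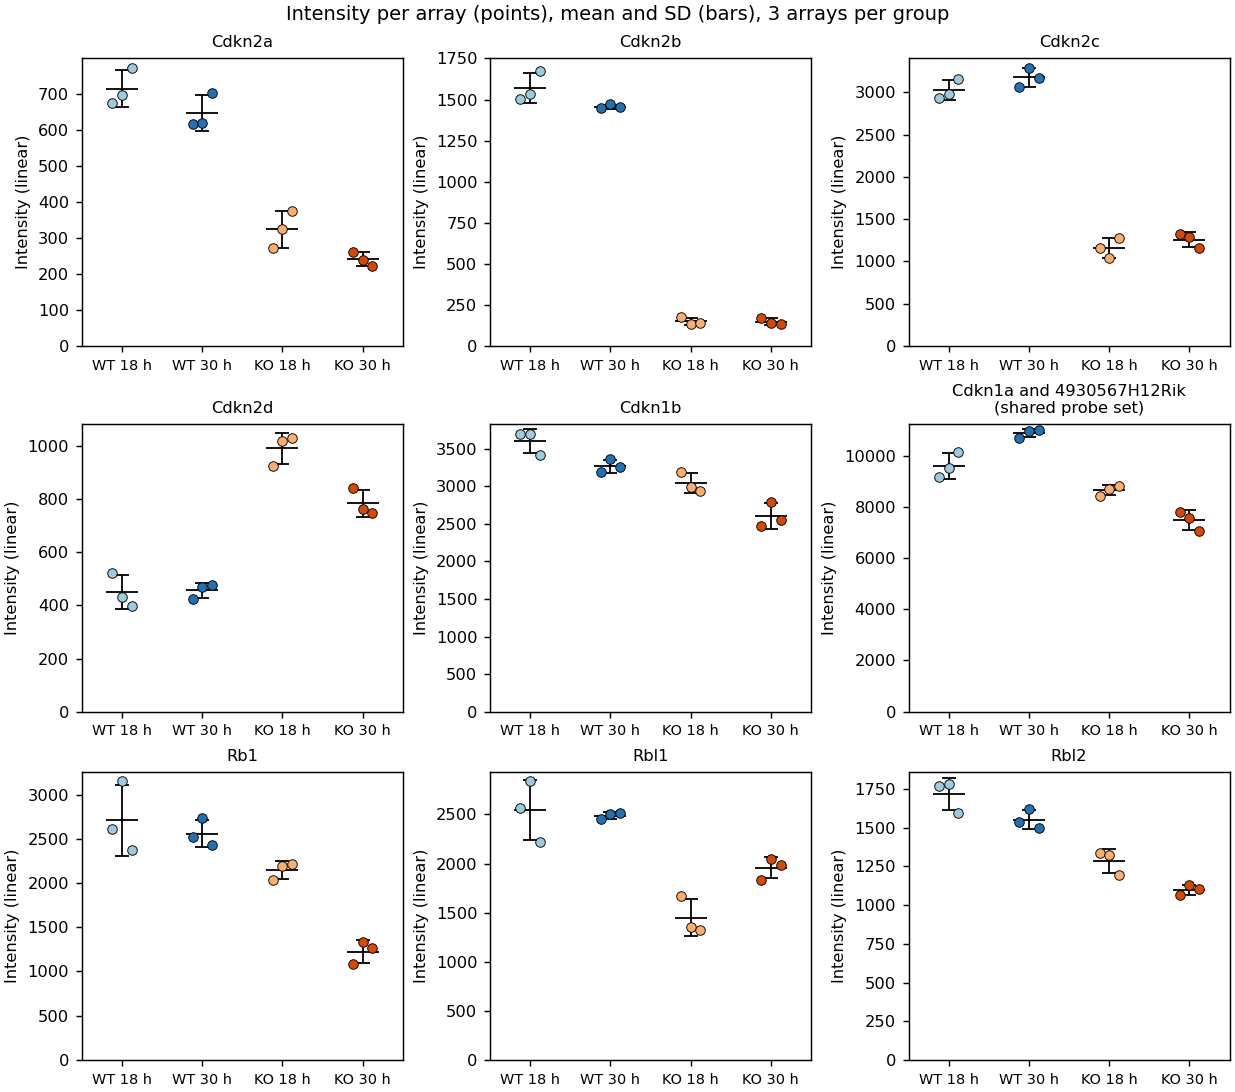
Linear intensity of each member in every array (points), with the mean and SD of 3 arrays per group (bars), for wild type (WT) and knockout (KO) at 18 h and 30 h. The knockout arrays of Cdkn2b sit between 132.3 and 174.7 and the wild-type arrays between 1448 and 1675, while Cdkn2d is the member whose knockout arrays lie above the wild-type arrays.

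At 18 h the INK4 genes had the largest differences among the members. Cdkn2b, which encodes p15, an inhibitor known to be induced by TGF-beta, read 1502, 1531 and 1675 in wild type and 174.7, 132.3 and 141.2 in knockout at 18 h. At 30 h it read 1448, 1471 and 1452 in wild type and 171.6, 137.5 and 132.8 in knockout. Every knockout array lay far below every wild-type array at both times. All knockout arrays were also under the intensity of 175 that a gene's mean over all arrays had to reach, so Cdkn2b passed that filter only through wild type, and its knockout level is not resolved from that of untested genes. Set against the filter intensity itself, it was at least 8.30-fold lower in knockout at 18 h and at least 7.72-fold lower at 30 h. The fitted log2 fold changes were -3.27 at 18 h (SE 0.108, adjusted p = 1.1e-13) and -3.18 at 30 h (adjusted p = 1.7e-13). Because the knockout signal was dim, the fitted size depended on the offset, at -3.39 with an offset of 1 and -2.94 with an offset of 64 at 18 h.

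Cdkn2a, which encodes p16 and ARF, had a single probe set. At 18 h it read 675.3, 695.5 and 771.2 in wild type and 273.2, 324.3 and 375.3 in knockout. The values at 30 h were 615.9, 619.0 and 702.8 in wild type and 260.2, 240.0 and 221.1 in knockout. The genotypes were separate at both times, with a smaller gap than for Cdkn2b. The log2 fold change was -1.11 at 18 h (2.16-fold lower, SE 0.110, adjusted p = 1.76e-07) and -1.37 at 30 h (2.58-fold lower, adjusted p = 1.58e-08). A fit over all 15252 probe sets above the filter, without choosing 1 per gene, gave Cdkn2a the same log2 fold changes with adjusted p = 2.35e-07 and 2.23e-08. The positions of its probes are not given in the sources used here, so whether the p16INK4a or the ARF transcript differed cannot be told from it.

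Cdkn2c, which encodes p18 and lies elsewhere on chromosome 4, read 2933, 2977 and 3160.5 in wild type and 1154, 1037.5 and 1275 in knockout at 18 h. At 30 h it read 3066, 3291 and 3172 in wild type and 1324, 1292 and 1157 in knockout. All knockout arrays were below all wild-type arrays. The log2 fold change was -1.38 at 18 h (2.60-fold lower, SE 0.0815, adjusted p = 2.23e-10) and -1.33 at 30 h (2.51-fold lower, adjusted p = 4.32e-10). Cdkn2a and Cdkn2c were thus called and lower by at least 2-fold at both times, a class that held 8.07% of tested genes at 18 h and 6.21% at 30 h. Cdkn2b met the same bounds, but it reached the test only through wild type and is not set against these shares.

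Cdkn2d, which encodes the p19 INK4 protein and is a different gene from the source of p19ARF, went the other way. At 18 h it read 520.6, 430.6 and 398.3 in wild type and 923.4, 1020.0 and 1030.5 in knockout. The values at 30 h were 422.8, 469.8 and 477.0 in wild type and 843.0, 761.2 and 747.7 in knockout. It was the 1 member with all knockout arrays above all wild-type arrays, by a log2 fold change of 1.12 at 18 h (2.17-fold higher, SE 0.101, adjusted p = 5e-08; 6.36% of tested genes were called higher by at least 2-fold) and 0.76 at 30 h (1.69-fold higher, adjusted p = 6.7e-06).

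The CIP/KIP gene Cdkn1b, which encodes p27, an inhibitor abundant in resting cells, differed less. Its brighter probe set read 3695, 3698 and 3412 in wild type and 3189.6, 2993 and 2944 in knockout at 18 h. At 30 h it read 3184, 3363 and 3250.4 in wild type and 2468, 2796 and 2545 in knockout. The groups did not overlap, but the gap was small beside that of the INK4 genes, with a log2 fold change of -0.24 at 18 h (SE 0.066, adjusted p = 0.00436) and -0.33 at 30 h (adjusted p = 0.000481). A second, dimmer Cdkn1b probe set was lower by a log2 fold change of -0.60 at 18 h (adjusted p = 0.000104) and -0.41 at 30 h (adjusted p = 0.00377) in the fit over all probe sets.

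The probe set shared by Cdkn1a, the p53-induced gene of p21, and 4930567H12Rik read 9149.9, 9518 and 10127 in wild type and 8433, 8700.4 and 8827 in knockout at 18 h. The values at 30 h were 10706, 10953 and 11002.5 in wild type and 7815, 7579 and 7041 in knockout. Its genotypes did not overlap and stood wider apart at 30 h. In a fit that kept probe sets with several symbols, added after these data were seen, its log2 fold change was -0.15 at 18 h (adjusted p = 0.0225) and -0.54 at 30 h (adjusted p = 1.91e-07).

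The pocket proteins were all lower in knockout. Rb1, which encodes the founding tumour suppressor of the family, read 2609, 3151 and 2368 in wild type and 2034, 2195 and 2215 in knockout at 18 h. At 30 h it read 2516, 2729.7 and 2429.7 in wild type and 1083, 1331 and 1261.5 in knockout. The groups were narrowly separate at 18 h and widely separate at 30 h. The log2 fold change was -0.32 at 18 h (SE 0.0997, adjusted p = 0.00996) and -1.06 at 30 h (2.08-fold lower, adjusted p = 1.19e-07). The call at 18 h was lost without wild-type 18 h replicate 2, the highest array (log2 fold change -0.21, adjusted p = 0.0717).

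Rbl1, which encodes p107, a pocket protein known to be transcribed as cells enter the cycle, read 2569.7, 2839 and 2224 in wild type and 1665, 1351 and 1325 in knockout at 18 h. The values at 30 h were 2449, 2503 and 2513 in wild type and 1837.5, 2045 and 1990.3 in knockout. Here the larger gap was at 18 h, with a log2 fold change of -0.81 (1.75-fold lower, SE 0.0963, adjusted p = 1.53e-06), and the smaller at 30 h, at -0.34 (1.27-fold lower, adjusted p = 0.00613).

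Rbl2, which encodes p130, the pocket protein most abundant in resting cells, read 1769, 1785 and 1596 in wild type and 1336, 1322 and 1194 in knockout at 18 h. At 30 h it read 1539, 1619.8 and 1499 in wild type and 1064, 1128 and 1102.5 in knockout. The gap was alike at both times, with a log2 fold change of -0.41 at 18 h (SE 0.0755, adjusted p = 0.000147) and -0.49 at 30 h (adjusted p = 3.21e-05).

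**Figure D2:**
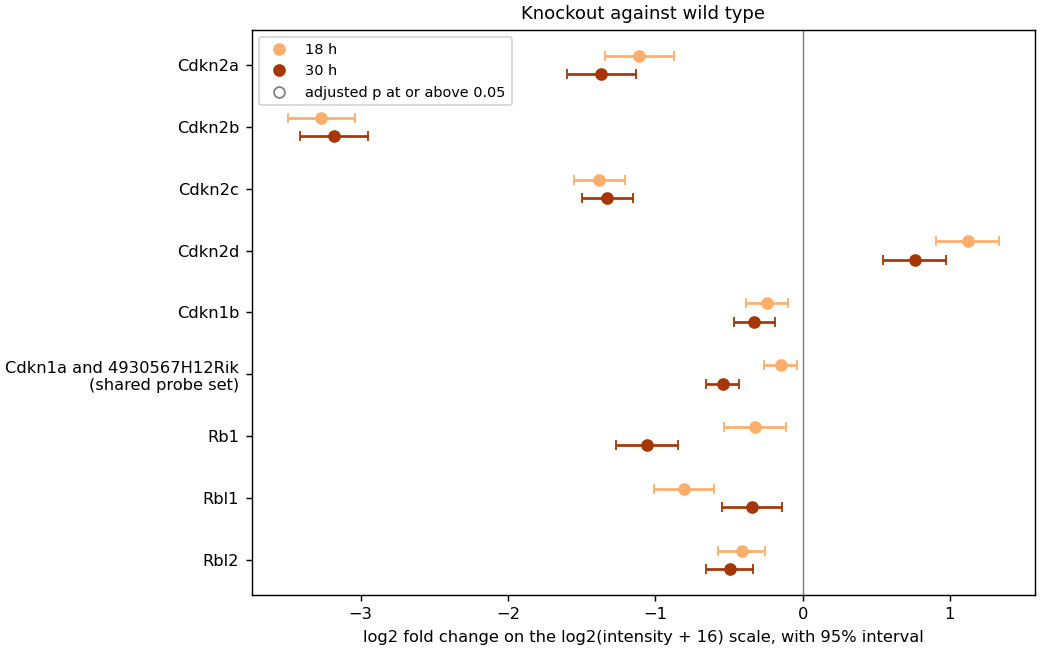
Log2 fold change of knockout against wild type for each member at 18 h and 30 h, with its 95% interval, from the fit of 4 group means over 12 arrays (the shared Cdkn1a probe set from the fit that kept several symbols). Cdkn2b lies furthest to the left at -3.27 and -3.18, Cdkn2d alone lies to the right, and Rb1 moves from -0.32 at 18 h to -1.06 at 30 h.

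At 30 h all 8 members were again called, 7 lower and Cdkn2d higher, against 52.9% of tested genes called, 28.6% lower and 24.3% higher. The median over members was -0.77, beside 0.02 over all tested genes. It includes Cdkn2b, and without Cdkn2b the middle value is that of Rbl2, -0.49. All 8 had genotypes that did not overlap, against 61.5% of tested genes. Cdkn2b again reached the test only through its wild-type arrays, so its call and its lack of overlap add nothing to these counts. The 2 times have separate arrays in both genotypes. The labels do not say whether the times share lines or cultures, so the 30 h result cannot be taken as an independent repeat. Quantile, median and cyclic loess scaling left 7 members lower and 1 higher at both times.

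Time had no called effect on any member in wild type. Of the 8 members 0 were called between 30 h and 18 h with limma, against 3.96% of all tested genes (2.41% higher, 1.55% lower), and 1, Cdkn1b, had an unadjusted p under 0.05, as did 18.3% of all tested genes. Cdkn1b had a log2 fold change of -0.14 (95% interval -0.28 to -0.00, adjusted p = 0.273), Cdkn2a -0.14 (adjusted p = 0.555), Rbl2 -0.14 (adjusted p = 0.339) and Cdkn2b -0.10 (adjusted p = 0.676). Cdkn2c, Cdkn2d, Rb1 and Rbl1 lay between -0.07 and 0.07, and the sign of Cdkn2d, Rb1 and Rbl1 turned under some alternatives. Arrays of the 2 times did not overlap for Cdkn1b and Cdkn2b, both lower at 30 h, against 25.6% of tested genes. The widest of the 8 intervals, that of Cdkn2a, ran from -0.38 to 0.09. The shared Cdkn1a probe set had a log2 fold change of 0.18 (adjusted p = 0.0656), with its wild-type arrays higher at 30 h and not overlapping.

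In knockout 6 of the 8 members were called between 30 h and 18 h, against 39.3% of tested genes (20.9% higher, 18.4% lower). Rbl1 was higher at 30 h, and Rb1, Cdkn2a, Cdkn2d, Cdkn1b and Rbl2 were lower. Their arrays of the 2 times did not overlap, against 46.2% of tested genes. Rb1 had the largest fall, with a log2 fold change of -0.81 (1.75-fold lower, SE 0.0997, adjusted p = 1.44e-05), from 2148 ± 99.3 to 1225 ± 128 (SD, n = 3 each). Rbl1 rose from 1447 ± 189 to 1958 ± 108 (SD, n = 3 each, log2 fold change 0.44, SE 0.0963, adjusted p = 0.00176), so these pocket protein genes moved in opposite directions between the same arrays. Cdkn2b (log2 fold change -0.02, 95% interval -0.25 to 0.21, adjusted p = 0.926) and Cdkn2c (0.12, 95% interval -0.05 to 0.30, adjusted p = 0.263) were not called. Cdkn2c was called with array weights (0.22, adjusted p = 0.00949).

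The other 4 calls in knockout were smaller and each was lost under at least 1 alternative. Cdkn2a had a log2 fold change of -0.40 (adjusted p = 0.00838), and -0.29 (adjusted p = 0.0543) without knockout 18 h replicate 3. Cdkn2d had -0.33 (adjusted p = 0.0146), and lost its call without knockout 18 h replicate 2 (adjusted p = 0.0553), knockout 18 h replicate 3 (adjusted p = 0.0529) or knockout 30 h replicate 2 (adjusted p = 0.0532). Cdkn1b had -0.22 (adjusted p = 0.0122), and lost its call without knockout 30 h replicate 1 (adjusted p = 0.0573) and in the mean of its probe sets (log2 fold change -0.16, adjusted p = 0.133). Its dimmer probe set was not called (-0.10, adjusted p = 0.502). Rbl2 had -0.22 (adjusted p = 0.028), and lost its call without knockout 18 h replicate 1 (adjusted p = 0.0598), knockout 18 h replicate 2 (adjusted p = 0.104), knockout 30 h replicate 1 (adjusted p = 0.0888) or knockout 30 h replicate 3 (adjusted p = 0.0539), and with only the arrays compared (adjusted p = 0.0587). The shared Cdkn1a probe set was lower at 30 h in knockout by a log2 fold change of -0.21 (adjusted p = 0.00442). Without knockout 18 h replicate 1, the array that stood apart, 5 members were called, with Rb1 at -0.85 and Rbl1 at 0.54 on the log2 scale.

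**Figure D3:**
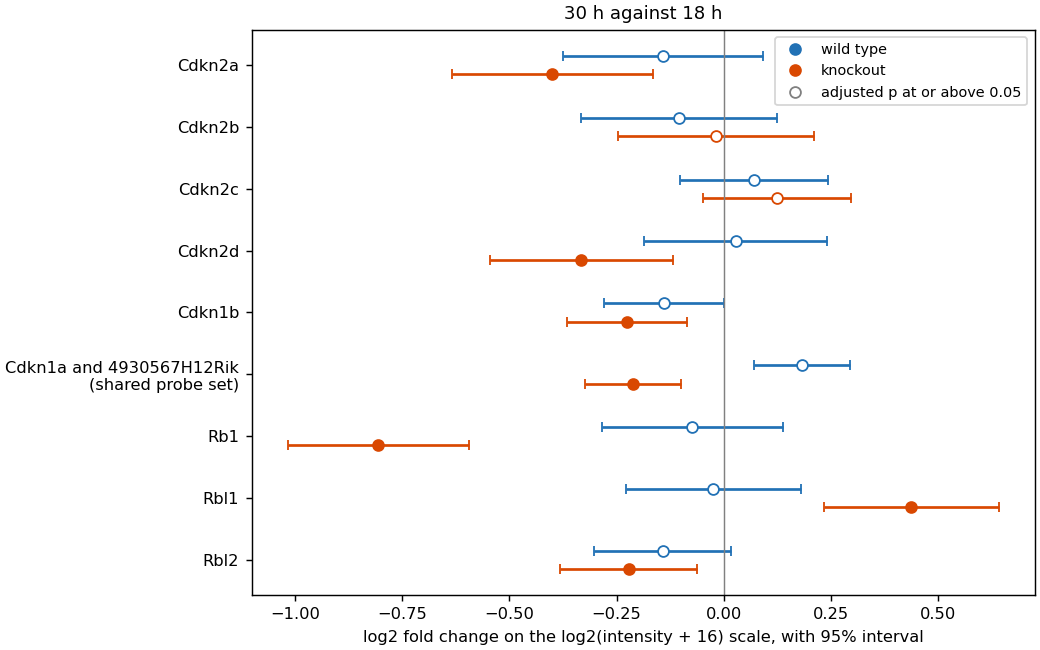
Log2 fold change of 30 h against 18 h for each member in wild type (blue) and knockout (orange), with its 95% interval; filled points have an adjusted p under 0.05. No wild-type point is filled, and in knockout Rb1 lies at -0.81 and Rbl1 at 0.44.

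The difference of the time effects, knockout minus wild type, was called for 2 of 8 members, against 20.3% of tested genes (10.2% higher, 10.1% lower). For Rb1 it was -0.73 (SE 0.141, 95% interval -1.03 to -0.43, adjusted p = 0.00208), and it was called without each array in turn. For Rbl1 it was 0.46 (SE 0.136, 95% interval 0.17 to 0.75, adjusted p = 0.0246), and the call was lost with median scaling (0.37, adjusted p = 0.0642) and without wild-type 18 h replicate 1 or 2, wild-type 30 h replicate 1, knockout 18 h replicate 2 or 3, or knockout 30 h replicate 2 or 3 (adjusted p between 0.0505 and 0.0700). Cdkn2d had -0.36 (adjusted p = 0.0859), which was called without knockout 18 h replicate 1 (-0.41, adjusted p = 0.0413) or wild-type 18 h replicate 1 (-0.47, adjusted p = 0.0272), with quantile scaling (-0.43, adjusted p = 0.0444) and with array weights (-0.38, adjusted p = 0.0129). Cdkn2a had -0.26 (95% interval -0.59 to 0.07, adjusted p = 0.277), called with array weights (-0.31, adjusted p = 0.0465), and the remaining members lay between -0.09 and 0.09. Cdkn2b is among the latter, with knockout arrays under the filter intensity, so its difference is not resolved. The shared Cdkn1a probe set had -0.39 (adjusted p = 0.00197), higher at 30 h in wild type and lower in knockout. The comparisons within this design share arrays, so the time effects and genotype effects of a gene are not independent.

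Cdkn2a and Cdkn2b lie side by side on chromosome 4, and Mtap, the protein-coding gene next to Cdkn2a, was higher in knockout where they were lower. In the order of RefSeq protein-coding genes the measured neighbours are Ifna4, Ifne and Mtap on one side and Dmrta1, Zfp352, Elavl2 and Izumo3 on the other. Mtap, which encodes a methionine salvage enzyme, read 3155, 2720.5 and 2877 in wild type and 4273, 4309 and 4346 in knockout at 18 h, with a log2 fold change of 0.56 at 18 h (adjusted p = 5.01e-07) and 0.64 at 30 h (adjusted p = 1.43e-07). Dmrta1, next to Cdkn2b, read between 49.4 and 82.5 over all 12 arrays and was too dim to test. Elavl2 was higher in knockout by 0.28 (adjusted p = 0.0348) and 0.36 (adjusted p = 0.011).

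The list of chromosome 4 neighbours held 14 genes, of which 13 were measured and 7 tested. Of all tested genes 26.3% were called higher in knockout and 33.8% lower at 18 h, and 24.3% and 28.6% at 30 h. Of the 7 neighbours 2 were higher and 4 lower in knockout at both times, with a median of -0.23 at 18 h and -0.28 at 30 h. At 18 h 2 rather than 4 were lower under the 3 scalings, with only the arrays compared, and without wild-type 18 h replicate 1 or 2 or knockout 18 h replicate 1 or 3. At 18 h 1 rather than 2 was higher without wild-type 18 h replicate 2 or 3 or knockout 18 h replicate 2, and at both times with the filter at the 50th percentile. At 30 h 1 was higher without wild-type 30 h replicate 2. The fatty acid elongation enzyme gene Hacd4 had a log2 fold change of -0.24 at 18 h and -1.67 at 30 h (adjusted p = 0.0408 and 1.58e-10), Focad -0.35 and -0.51, Mllt3, a gene of the super elongation complex, -0.23 and -0.28, and Tusc1 -0.40 and -0.33, all called. Klhl9, an adaptor of a ubiquitin ligase, was not called, at -0.09 and -0.19. Hacd4 was also lower at 30 h than at 18 h in knockout, with a log2 fold change of -1.76 (adjusted p = 1.34e-08).

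**Figure D4:**
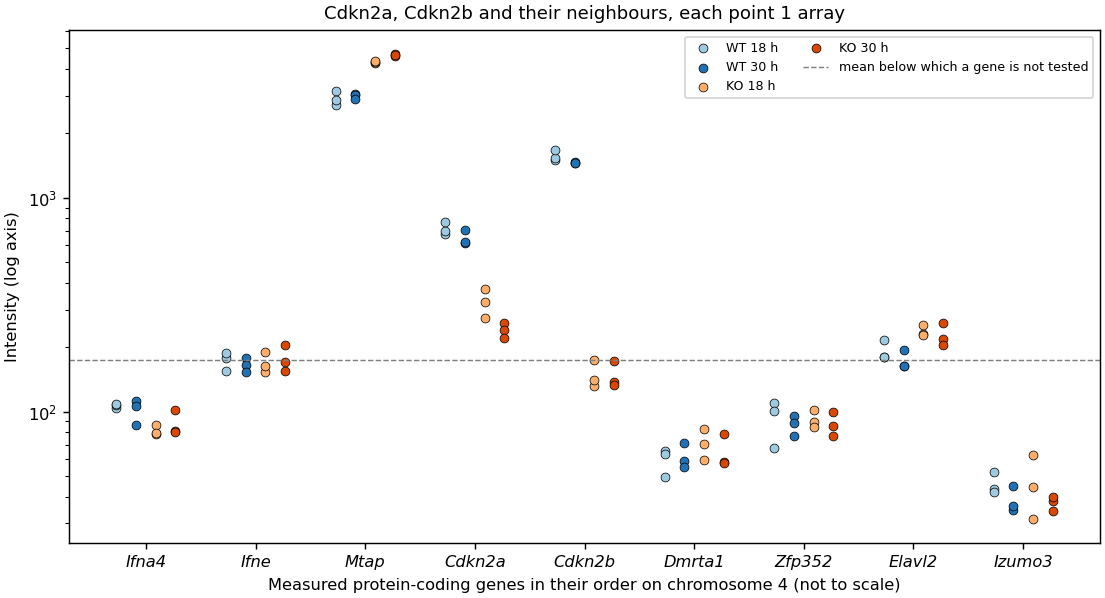
Intensity of Cdkn2a, Cdkn2b and the measured protein-coding genes on either side of them on chromosome 4, in their order and not to scale, on a log axis; each point is 1 array, coloured by group, and the dashed line marks the mean intensity of 175 under which a gene was not tested. Knockout points lie below wild-type points for Cdkn2a and Cdkn2b and above them for Mtap.

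Genes related to these inhibitors and pocket proteins were counted in lists, given with their medians. The median of all tested genes was -0.03 at 18 h and 0.02 at 30 h for knockout against wild type. The list counts stand beside the shares of all tested genes called. These were 26.3% higher and 33.8% lower at 18 h, and 24.3% higher and 28.6% lower at 30 h. A list of 7 genes held Cdkn1c, CDK phosphatases, and the kinase genes Wee1 and Pkmyt1. Of these 7, 4 were higher in knockout at 18 h and 5 at 30 h (median 0.42 and 0.48), the others not being called. Under each of 3 scalings 5 were higher at 18 h. The phosphatase gene Cdc25c, which activates CDK1, had 1.16 and 1.05. Cdkn1c, the third CIP/KIP inhibitor, had 0.00 at 18 h (adjusted p = 0.976) and 0.14 at 30 h (adjusted p = 0.321). Among 14 cyclins and CDKs, 6 were higher and 5 lower at 18 h (median 0.06). At 30 h 3 were higher and 6 lower (median -0.02). The cyclin D1 gene Ccnd1, a partner of the INK4-sensitive CDK4 and CDK6, was higher by 0.92 and 0.81 and the cyclin E1 gene Ccne1 lower, with -0.73 and -0.64.

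E2F, DP and MuvB partners of the pocket proteins were mostly higher at 18 h, with 13 of 17 higher and 3 lower (median 0.41), and 1 lower under median scaling. At 30 h 7 were higher and 2 lower (median 0.09). At 18 h Mybl2, which encodes the B-MYB partner of MuvB, had 1.16, Foxm1 0.82 and E2f3 -0.46. For E2f3 the difference of the time effects was 0.44, so little of its gap was left at 30 h. Of 25 E2F target genes of S phase, 14 were higher and 5 lower at 18 h (median 0.33), and 3 higher and 10 lower at 30 h (median -0.12). Median scaling left 3 lower at 18 h and 1 higher at 30 h, and 1 was higher at 30 h without wild-type 30 h replicate 1 or knockout 30 h replicate 2. The lists share some genes, Ccne1 and E2f1 among them.

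The S-phase list moved with time in wild type, where the 8 members had no call. In wild type 21 of 25 were higher at 30 h and 4 were not called (median 0.43, beside -0.01 over all tested genes), with Mcm5 of the replicative helicase at 0.71 and the licensing factor gene Cdc6 at 0.68. Over all tested genes 2.41% were called higher in wild type. The list count of 21 was 13 without wild-type 30 h replicate 3. In knockout 6 were higher and 6 lower (median -0.02), and 3 were lower with median scaling, without knockout 18 h replicate 2 or 3, or without knockout 30 h replicate 2 or 3, while 3 were higher without knockout 30 h replicate 1. Of all tested genes 20.9% were called higher over time in knockout and 18.4% lower. The difference of the time effects was called for 16 of 25, all lower, against 10.1% of all tested genes called lower. The list median was -0.39, beside 0.04, with the licensing factor gene Cdt1 at -0.92.

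Mitotic genes known as targets of the DREAM complex were higher in knockout, 21 of 21 at 18 h (median 0.66) and 20 of 21 at 30 h (median 0.54) and the 1 other not called. Birc5, which encodes the chromosomal passenger survivin, had 1.23 at 18 h, and the spindle checkpoint kinase gene Ttk had 1.17 at 18 h and 1.14 at 30 h.

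In the ARF and p53 pathway 14 of 20 tested genes were lower and 5 higher in knockout at 18 h (median -0.61), and 17 were lower and 1 higher at 30 h (median -0.74). Without wild-type 18 h replicate 1 or 2, 3 were higher at 18 h, and without wild-type 30 h replicate 1 or knockout 18 h replicate 1, 2 were higher at 30 h. Trp53inp1, a p53-induced gene, had -1.89 and -2.41, and the growth arrest gene Gadd45a had 0.93 at 18 h and -1.45 at 30 h. Between the times, in knockout, 4 were higher and 11 lower (median -0.29), against 20.9% and 18.4% of all tested genes, with Gadd45a at -2.04. The shared Cdkn1a probe set was lower in knockout at both times, as was this list's median.

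Regulators known to act on the Ink4/Arf locus had no common direction, with 12 of 28 higher and 6 lower at 18 h (median 0.10). At 30 h 9 were higher and 10 lower (median 0.03). Without knockout 30 h replicate 3, 6 were lower at 30 h. Bmi1, the Polycomb protein known for repressing Cdkn2a, had -1.85 at 18 h and -0.67 at 30 h (adjusted p = 3.04e-11 and 1.27e-05), and was higher at 30 h than at 18 h in knockout by 1.16. The AP-1 gene Jun had 1.39 and 1.16. The chromatin protein gene Hmga2, which is known to restrain Ink4a and Arf in young stem cells, had 1.03 at 30 h. Its difference of the time effects was 1.02, so little of this was present at 18 h. Among 16 genes of SCF ligases and of the turnover of p21 and p27, 7 were higher and 7 lower at 18 h (median 0.09). At 30 h 4 were higher and 6 lower (median -0.004), and 2 were higher with median scaling. At 18 h the scaffold gene Cul1 had -0.81, and Cks1b, the cofactor that helps SKP2 bind p27, had 0.56. For Cul1 the difference of the time effects was 0.87, so its lower level at 18 h was not kept at 30 h.

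**Figure D5:**
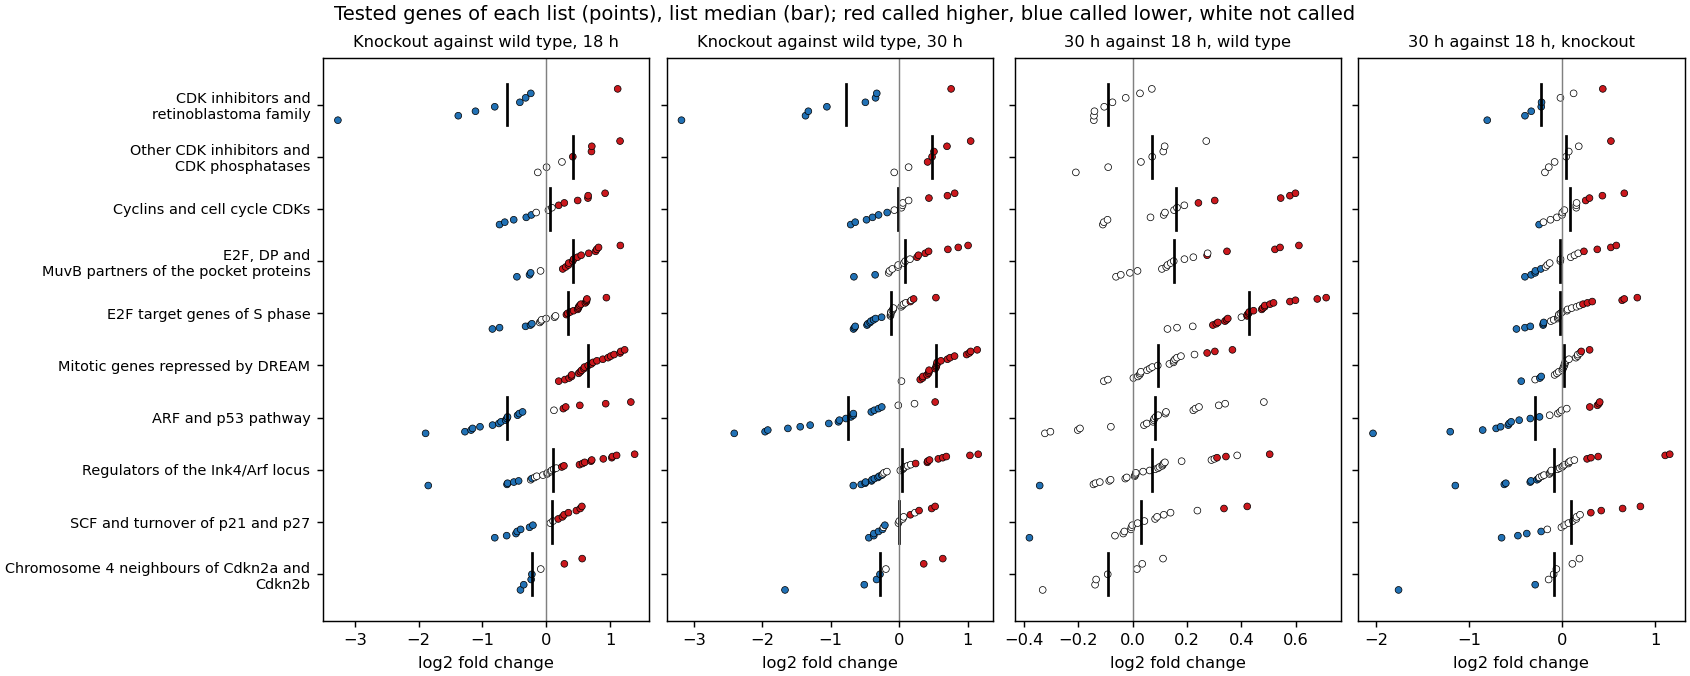
Log2 fold changes of the tested genes of each list (points; red called higher, blue called lower, white not called) with the list median (bar), for knockout against wild type at 18 h and 30 h and for 30 h against 18 h in each genotype. The CDK inhibitors and pocket proteins have medians of -0.61 and -0.77 between genotypes, with Cdkn2b included, which reached the test only through wild type. The mitotic genes have 0.66 and 0.54, and the S-phase genes rise with time in wild type (median 0.43).

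Markers of other cell types were counted beside these results, and their part in them was not tested. Of 10 neural markers, 9 were measured and 6 were above the filter. Summed intensity of the neural markers was 1419 to 1769 in wild type and 10269 to 12137 in knockout. Of the 6, 4 were called higher at both times. The filter took a gene's mean over all arrays, so a marker dim in wild type could pass it through knockout alone. These 4 calls are therefore not set against the 26.3% of tested genes called higher at 18 h and 24.3% at 30 h. Of 11 macrophage and blood markers, 9 were measured and 6 above the filter, with sums of 2548 to 2615 in wild type and 2739.9 to 4399.6 in knockout at 18 h, and of 2282.5 to 2389.5 in wild type and 2268 to 2406 in knockout at 30 h. The leukocyte gene Ptprc was below the filter. Sums for 8 epithelial markers, 5 above the filter, were 3488 to 4560.4 in wild type and 4098 to 4709.9 in knockout. Of 8 endothelial markers 1 was above the filter, of 7 muscle markers 4, and of 6 pluripotent and germ markers 2. Summed intensity in wild type and knockout was 1076 to 1265 and 1225 to 1447 for endothelial, 2252 to 2565 and 2108 to 2726 for muscle, and 994.1 to 1184 and 1077 to 1226 for pluripotent and germ markers.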

How the data were processed

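The authors deposited linear intensity values, 1 per probe set and array. The submitters' processing notes name Affymetrix Expression Console 1.1 and the PLIER algorithm, version 2.0. Each array took 100 ng of total RNA, per the labels' protocols. The scaling between arrays, the genome build and the probe positions are not given in the sources used here. Of 35557 probe sets 21789 had 1 gene symbol, 1621 several and 12147 none listed.

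Values were taken as log2(intensity + 16), a scale that shrinks differences between dim values. The probe set of highest mean stood for a gene, and 13956 of 19938 genes at or above the 30th percentile (log2 7.58, intensity about 175) were tested. The 4 group means were estimated across the 12 arrays by lmFit and eBayes with an intensity trend (limma 3.58.1, R 4.3.3; 8 residual and 7.98 prior degrees of freedom). Tests were two-sided, with Benjamini-Hochberg adjustment over all genes tested in a comparison, called under 0.05. Groups came from the sample labels. The members, gene lists, marker lists and tests were chosen with earlier results of these data known. All members are named, and from each other list up to 2 called genes with the highest and 2 with the lowest log2 fold change in a comparison, besides every tested chromosome 4 neighbour. Cdkn1c, Dmrta1, Ptprc and genes given at a further time or comparison were added after their values were seen.

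Alternatives were offsets of 1 and 64, no filter, the 50th percentile, 3 scalings, array weights, robust eBayes and no trend, a fit of only the arrays compared, the mean of probe sets, the replicate number as a block, each array left out, and, added after seeing the data, probe sets with several symbols kept. The fit was tested on simulated data with known changes and independent normal noise. In each comparison 100 genes were changed by 0.5 and 100 by 1, among 13956 genes. For the difference of the time effects, 36 of 100 changes of 0.5 and 89 of 100 changes of 1 were recovered. For the other comparisons 65 to 72 and 93 to 100 were recovered. False calls were 6.72% of calls for the difference of the time effects and 1.75% to 5.08% for the others. In the data a far larger share was called between genotypes, 60.1% at 18 h and 52.9% at 30 h. The simulated rates therefore describe the simulated setting only.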

Additional observations from a re-analysis of the deposited data

Results flagged for a closer look

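The following results were singled out because the change between 18 h and 30 h differed between the genotypes, tested as the difference of the time effects with limma. For Rb1 the difference, knockout minus wild type, was -0.73 (adjusted p = 0.00208), with a time effect of -0.07 in wild type and -0.81 in knockout. For Rbl1 the difference was 0.46 (adjusted p = 0.0246), with -0.02 in wild type and 0.44 in knockout, and the call was lost in 1 scaling and in 7 of the 12 fits that left out 1 array. For the probe set shared by Cdkn1a and 4930567H12Rik the difference was -0.39 (adjusted p = 0.00197), with 0.18 in wild type (adjusted p = 0.0656) and -0.21 in knockout.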

How the results depend on the processing

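The counts of members called between genotypes were 7 to 8 at 18 h and 8 to 8 at 30 h when each array was left out, 0 to 0 for time in wild type, 4 to 6 for time in knockout and 1 to 3 for the difference of the time effects. That last count, 2, was 1 with median scaling and 4 with array weights. It was 1 without wild-type 18 h replicate 2, wild-type 30 h replicate 1, knockout 18 h replicate 2 or 3, or knockout 30 h replicate 2 or 3. The count for time in knockout, 6, was 4 without knockout 18 h replicate 2, knockout 18 h replicate 3 or knockout 30 h replicate 1. The time effect of Cdkn2a in knockout over all probe sets ran from -0.51 to -0.29 with each array left out (adjusted p = 0.0568 at the latter). The cause of these changes was not tested. Directions turned only where no call stood, in these alternatives. In wild type over time, Cdkn2d was -0.0079 with array weights and Rbl1 was 0.046 with median scaling. With each array left out, Cdkn2d ran from -0.053 to 0.13, Rb1 from -0.17 to 0.040 and Rbl1 from -0.12 to 0.057. In knockout over time, Cdkn2b was 0.038 with array weights and ran from -0.12 to 0.089 with each array left out. For the difference of the time effects, Cdkn1b was 0.0043 with array weights and 0.056 in the mean of probe sets, Cdkn2b was -0.0041 and Cdkn2c -0.038 with median scaling. With each array left out Cdkn2b ran from -0.018 to 0.19 and Cdkn2c from -0.022 to 0.13. Over all tested genes, 60.9% of calls for time in wild type were higher, and 81.0% with median scaling; for the difference of the time effects the share was 50.3%, 30.1% with median scaling and 37.4% with cyclic loess. Replicate numbers showed no clear pairing of the arrays, though 3 arrays a group cannot exclude shared cultures or days. The correlations of same-numbered deviations ran from -0.46 to 0.45, and 4 of 12 arrays were closest to their own number. With the replicate number as a block the members called were 8, 8, 0, 6 and 2, as without it. A fit of only the arrays compared could not be made for the difference of the time effects.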
